A study of Mus musculus with 6 samples.

Results

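MicroRNA precursor rows were examined in the array data of Tregs with and without CREB. A row of the data table is a transcript cluster, a set of probes summarised to 1 value per array. Members were all rows whose only gene symbol in the platform annotation was Mir followed by a digit or Mirlet7, with host genes whose symbol ends in hg left out. This gave 638 rows with 592 microRNA symbols among 65956 rows in all. A further 541 rows that list a microRNA together with another symbol, and 5 host gene rows, were not members. The rule used names only and no measured value, but it was set with earlier results of these data known.

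RNA came from splenic Tregs of 6 untreated male B6 mice aged 10 to 12 weeks, each mouse giving 1 array. The 3 CREB-KO animals were Foxp3creCREBfl/fl, with Cre expressed from the Foxp3 locus and loxP-flanked Creb1, so that deletion is limited to cells that express Foxp3. The 3 controls are called WT in the labels and CREBfl/fl in the methods, so the Cre allele goes along with the loss of CREB in every difference below. Cells were CD4+CD25+ by magnetic separation and then sorted as CD4+CD25+Nrp1+.

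MicroRNAs are cut from hairpins in longer primary transcripts, first by Drosha in the nucleus and then by Dicer in the cytoplasm. The mature strand is loaded into an Argonaute protein and pairs with messenger RNAs mainly through its seed, the bases just after its first base. Tregs depend on this pathway, and loss of Dicer in Foxp3+ cells of mice leads to fatal autoimmunity. Many microRNAs are made from introns of other genes or from a primary transcript that several hairpins share, whereas some entries, such as those of the Mir669 and Mir467 families, lie in repeated sequence. Total RNA was labelled here, and the labels and methods do not say which of hairpin, primary transcript or overlapping gene the probes of a row report. The values are therefore no measure of mature microRNA.

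Sequences of some microRNAs referred to below are given from RefSeq (GRCm38.p6), 5′ to 3′. Hairpin entries matched 474 of the 638 rows. In each mature sequence the seed, bases 2 to 8, is in capitals. The first set is the Mir302 and Mir367 group on chromosome 3, plus strand, which had the lowest median difference of 52 groups of neighbouring microRNAs. Shared seeds can be read from it: miR-302b-5p, miR-302c-5p and miR-302d-5p share CUUUAAC, and miR-302b-3p and miR-302d-3p share AAGUGCU, whereas the seed of miR-302c-3p is AGUGCUU.
miR-302a-5p: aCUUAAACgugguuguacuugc
miR-302b-5p: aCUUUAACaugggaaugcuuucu
miR-302b-3p: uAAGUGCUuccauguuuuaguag
miR-302c-5p: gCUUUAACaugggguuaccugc
miR-302c-3p: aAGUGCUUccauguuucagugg
miR-302d-5p: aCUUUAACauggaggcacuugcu
miR-302d-3p: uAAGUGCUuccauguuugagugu
miR-367-5p: aCUGUUGCuaacaugcaacuc
miR-367-3p: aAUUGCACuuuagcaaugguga

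The array rows carry the names of precursors, whatever their probes report. The hairpins of the 3 members called lower are therefore shown too, with the mature arms in capitals.
Mir302b hairpin: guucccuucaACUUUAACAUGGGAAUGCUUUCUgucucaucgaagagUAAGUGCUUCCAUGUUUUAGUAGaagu
Mir302c hairpin: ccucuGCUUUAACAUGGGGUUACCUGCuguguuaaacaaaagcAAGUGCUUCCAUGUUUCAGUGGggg
Mir367 hairpin: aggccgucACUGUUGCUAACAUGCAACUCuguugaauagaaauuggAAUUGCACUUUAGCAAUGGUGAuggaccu

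The second set holds microRNAs whose mature sequence recurs outside their own locus. These 4 were found, by exact match on either strand, in at least 5 of 32836 promoter windows of 300 bases, windows of microRNA genes left out.
miR-3473b: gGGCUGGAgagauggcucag
miR-3473a: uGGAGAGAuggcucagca
miR-3470b: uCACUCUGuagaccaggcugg
miR-3471: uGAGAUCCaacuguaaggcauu
The sequence of miR-3473b was in 32 windows (0.0975%), that of miR-3471 in 11 (0.0335%), that of miR-3470b in 10 (0.0305%) and that of miR-3473a in 9 (0.0274%). Of the 1674 mature sequences searched, 1632 were in 0 windows and 37 in 1.

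The third set is of microRNAs of T cells that are referred to below.
miR-142a-5p: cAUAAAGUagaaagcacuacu
miR-142a-3p: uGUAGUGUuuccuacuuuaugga
miR-342-5p: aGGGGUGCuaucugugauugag
miR-342-3p: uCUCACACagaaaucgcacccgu

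The arrays carried the genes of the labelled cells. Of 11 T cell and Treg markers 9 had a row of their own, with means from 12.1 to 17.2 on the log2 scale, and Foxp3 and Nrp1 were not measured singly. All 10 markers of macrophages and monocytes lay below 0 in the difference CREB-KO minus CREB-WT, with a median of -1.23 and 0 past the study thresholds. Their summed level was 62.5 to 91.2 in CREB-KO and 77.0 to 97.5 in CREB-WT. Their mean level fell with the replicate number in both groups. It was 9.12, 7.49 and 6.25 in CREB-KO replicates 1, 2 and 3, and 9.75, 8.94 and 7.70 in CREB-WT. CREB-KO was the lower at each number. Of 7 measured B cell markers 1 was lower (Cd72), and of 6 CD8 T and NK cell markers and 2 erythroid markers 0 were called. Each of these marker lists is too short to tell its count from the 2.35% of all rows called. The part of these cell types in the microRNA values was not tested. Creb1 itself read higher on the arrays labelled CREB-KO, at 14.4 against 13.5 (unadjusted p = 0.0101), which goes against the labels. Its row pools probes over the transcript, so it does not check the deletion, and directions are those between arrays as labelled. Crem, which encodes a factor related to CREB, was at 7.41 in CREB-KO and 6.24 in CREB-WT, without overlap (difference 1.17, unadjusted p = 0.000269, adjusted p = 0.511).

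Slightly more than 50% of the microRNA rows lay above the median of their array. The share was 52.4%, 55.6% and 55.8% in CREB-KO replicates 1, 2 and 3, and 55%, 56.3% and 53.3% in CREB-WT replicates 1, 2 and 3. The groups overlapped. The mean of the 6 shares was 54.7%, and it was 49.1% against the median of rows with exactly 1 gene symbol, so the side of 50% depends on which rows set the median. On all 6 arrays 283 rows were above the median (44.4%, against 42.1% of all rows), on 0 arrays 208 (32.6%, against 40.5%), and 147 lay on both sides.

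**Figure D1:**
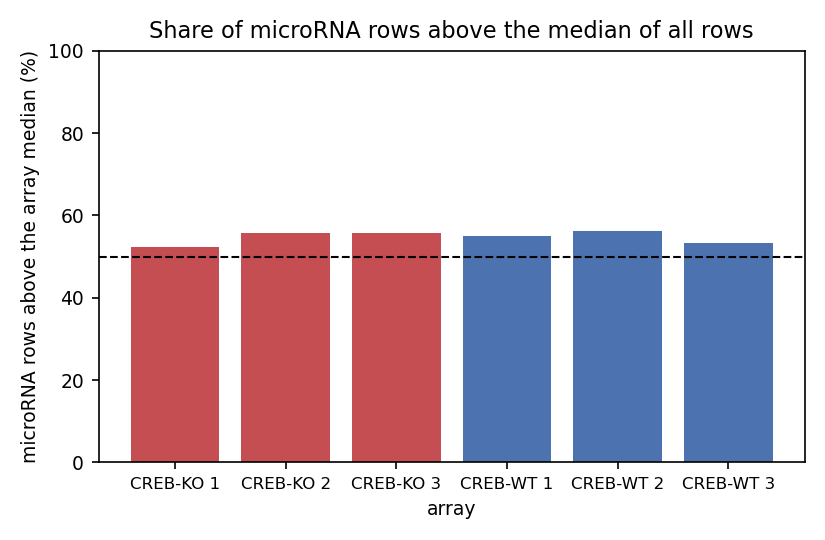
Percent of the 638 microRNA rows above the median of all rows, for each array (bars; red CREB-KO, blue CREB-WT), with a dashed line at 50%. All 6 bars lie between 52.4% and 56.3%, and the groups overlap.

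The levels reached further out than those of all rows at both ends, but not in the middle. The median of the row means was 4.71, against 4.52 over all rows, and the quartiles were 3.86 and 6.59, against 3.87 and 6.62. The 5th and 95th percentiles were 2.88 and 12.9 for microRNA rows, and 3.34 and 11.9 for all rows. Means above 16 were found for 19 microRNA rows (2.98%, against 1.43% of all rows), and means above 10 for 50 (7.84%, against 9.18%). The spread between replicates was also wider, with a median pooled SD of 0.29 against 0.22. This held for rows with a mean from 5 to 10 (0.38 against 0.32), below 5 (0.24 against 0.19) and above 10 (0.35 against 0.27). A level compared across rows depends on the probes of each row as well as on RNA, so the order of rows is a description of signal.

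**Figure D2:**
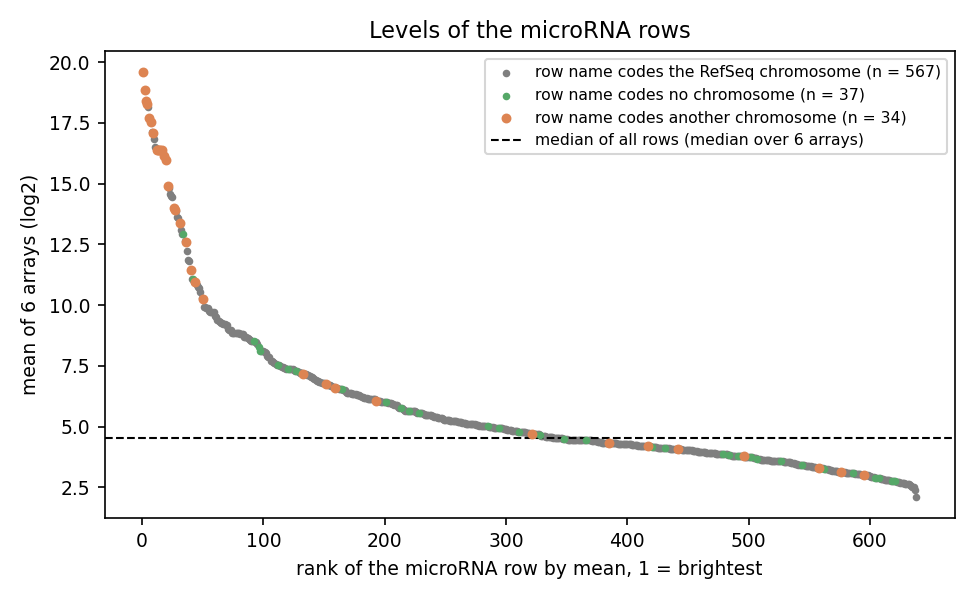
Mean of the 6 arrays (log2) of each microRNA row against its rank from the brightest, coloured by whether the chromosome coded in the row name is that of the microRNA in RefSeq; the dashed line is the median of all rows. Rows coded on another chromosome (orange) make up 14 of the 20 brightest.

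The brightest microRNA rows were not those of microRNAs known from T cells, of which 0 were among the first 20. The 20 rows of highest mean ran from 15.97 to 19.59 and carried 14 symbols. Mir669e led, at 19.52, 19.88 and 19.66 in CREB-KO and 19.43, 19.74 and 19.32 in CREB-WT. Mir3473a followed, at 18.95, 18.81 and 18.68 in CREB-KO and 18.96, 18.80 and 18.91 in CREB-WT. The groups overlapped for both.

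Next in order came a row of Mir3470b (18.41), Mir669m-2 (18.29), Mir1954 (18.16), Mir3473f (17.69), Mir3471-1 (17.51), Mir703 (17.11), Mir467f (17.10) and a second row of Mir3470b (16.83). Rows of Mir684-1 (16.50 and 5 rows with identical values at 16.40), Mir684-2 (16.27), Mir466f-3 (16.12), Mir6240 (16.11) and Mir1191 (15.97) closed the list. Neighbours in this order mostly differed by less than their spread, since the pooled SD of these rows ran from 0.10 to 0.60. Mir1954 lies within Eng, which encodes the co-receptor endoglin, on the same strand. Between the groups these 20 rows differed by -0.28 to 0.19, and 0 passed the study thresholds. So few rows, 5 of them with identical values, cannot tell 0 from the 2.35% of all rows that passed.

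Row names code a chromosome, and it was compared with that of the microRNA in RefSeq. The codes were equal for 567 microRNA rows, named another chromosome for 34 and were missing for 37, whereas 99.7% of 21855 rows of other genes agreed. Among the 20 brightest rows, 14 were coded on another chromosome, 1 had no code and 5 were on the chromosome of their microRNA. The 34 rows coded elsewhere had a median mean of 13.65, against 4.60 for the 567 rows, and 22 of them exceeded 10.

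For 20 microRNAs a row of each kind was present, and in 11 of them the row coded elsewhere was the brighter. Mir669e was the extreme. Its row coded on chromosome 8 had the mean of 19.59 given above, and its row on chromosome 2, where RefSeq places the gene, read 5.40. The corresponding means were 18.29 and 6.64 for Mir669m-2, 17.51 and 7.89 for Mir3471-1, 17.10 and 9.28 for Mir467f, and 16.12 and 12.24 for Mir466f-3. In the opposite direction, Mir467e had a mean of 7.16 on the row coded elsewhere and 10.81 on the other.

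Rows of the 4 recurring sequences printed above were bright only in part. Of 7 such rows, 4 had a mean above 10, all already named among the 20 brightest, and the lowest mean was 7.39. The 7 rows whose mature sequence was in at least 5 promoter windows had a median mean of 16.8 and were above the array median on all 6 arrays, whereas 483 rows with 0 windows had a median of 4.36. Members of the Mir297, Mir466, Mir467 and Mir669 families made up 88 rows with a median of 7.05, of which 68 were above the median on all 6 arrays. The other 550 rows had a median of 4.45, and 215 of them were above it on all 6. A group on chromosome 2 holds most of these families, and its 66 microRNAs, each within 10 kb of the next, had a median level of 6.26. Their differences ran from -0.60 to 1.01, with a median of -0.06, and 0 passed the study thresholds. Of all rows 2.35% passed in either direction, and 66 are too few to tell 0 from that share.

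Position within a host gene was only loosely related to level. On the same strand as another gene lay 200 rows, 161 in protein-coding genes (median mean 4.63) and 39 in long non-coding RNA genes (4.0). Another 225 lay in no gene on their strand, with a median of 4.32. Over 157 rows with a measured host, the row mean and the host mean had a Pearson r of 0.24 and a Spearman rho of 0.32, as a description across rows that share hosts and arrays. The microRNA row was below its host in 111 of the 157, by a median over all of 1.08. The GC content of the hairpin had an r of -0.06 and a rho of -0.05 with level over 474 rows.

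The level of CREB-KO was then compared with that of CREB-WT. No microRNA row passed an adjusted p of 0.05 in limma, nor did any other row (0% of 65956), and the smallest adjusted p of a microRNA row was 0.511. At an unadjusted p below 0.05, 35 rows passed (5.49%, against 5.59% of all rows). Adding a fold of 1.5, the thresholds of the study, 10 rows were higher (1.57%, against 1.62% of all rows) and 6 lower (0.94%, against 0.728%). The 16 rows in either direction were 2.51%, against 2.35% of all rows. These shares depended on the arrays used. Without CREB-WT replicate 2, 42 microRNA rows passed (6.58%, against 3.15% of all rows), and without both arrays numbered 1, 45 passed (7.05%, against 3.53%).

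The split of 10 higher and 6 lower depended on scaling. It was 8 and 7 after centring each array on its median, and 8 and 9 after quantile normalization. The median difference was 0.07 over microRNA rows and 0.05 over all rows, and 60.3% of microRNA rows and 60.4% of all rows lay above 0. After centring, the median over microRNA rows was 0.00325. All 3 CREB-KO arrays were above all 3 CREB-WT arrays in 34 rows (5.33%, against 7.87%) and below them in 21 (3.29%, against 3.29%).

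Large differences were more frequent among microRNA rows than in the table. At least 1 in size, on the log2 scale, was reached by 32 rows (5.02%, against 1.31% of all rows). Of these 22 were not called, and their median SE was 0.81, against 0.30 for the called rows.

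**Figure D3:**
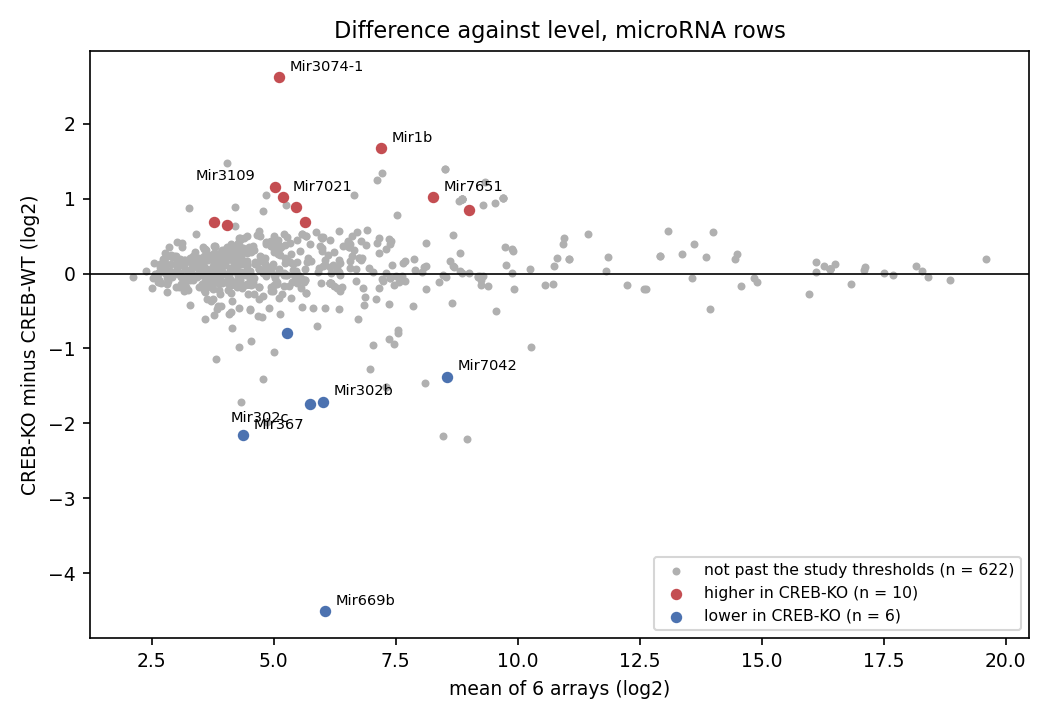
Difference CREB-KO minus CREB-WT (log2) of each of the 638 microRNA rows against its mean over 6 arrays (log2); red rows were higher and blue rows lower at the study thresholds, with names where the difference exceeds 1 in size. The Mir669b row stands lowest at -4.50, and the 20 brightest rows lie close to 0.

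The lowest difference belonged to a row of Mir669b, from the repeat-rich chromosome 2 family. It read 3.01, 4.53 and 3.87 in CREB-KO replicates 1, 2 and 3, and 9.05, 7.27 and 8.60 in CREB-WT. The CREB-KO arrays were at or below the array median and all CREB-WT arrays far above it, without overlap. The difference of -4.50 ± 0.56 (SE) ranked 1 from the lowest among all 65956 rows (unadjusted p = 0.000149, adjusted p = 0.511). This row is coded on chromosome 3, whereas RefSeq places Mir669b on chromosome 2. The Mir669b row coded on chromosome 2 read 8.46, 8.81 and 8.89 in CREB-KO and 8.26, 9.01 and 8.59 in CREB-WT, which overlap, and differed by 0.10 ± 0.22 (SE). The 2 rows of the microRNA thus disagreed, and what the row coded on chromosome 3 reports was not tested.

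The Mir302 and Mir367 group of 5 rows held 3 of the 6 rows called lower. This group is known from embryonic stem cells. Mir302c read 5.26, 4.37 and 5.01 in CREB-KO and 6.47, 6.74 and 6.63 in CREB-WT, without overlap. The means were 4.88 ± 0.46 and 6.61 ± 0.13 (SD), and the difference was -1.73 ± 0.24 (SE; unadjusted p = 0.000295, adjusted p = 0.511). Mir302b read 5.32, 4.69 and 5.47 in CREB-KO and 7.12, 7.13 and 6.35 in CREB-WT, again without overlap. Its difference was -1.71 ± 0.30 (SE; unadjusted p = 0.000975, adjusted p = 0.644).

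Mir367 was near the bottom of the range in CREB-KO. It read 3.20, 3.34 and 3.35 there and 7.43, 4.37 and 4.56 in CREB-WT, so that 1 control array stood far above the other two. Its difference was -2.16 ± 0.79 (SE; unadjusted p = 0.0329), and without CREB-WT replicate 1 it was -1.17. The call was lost without each of the CREB-KO replicates in turn.

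Mir302a read 4.06, 3.39 and 4.16 in CREB-KO and 4.92, 8.08 and 4.58 in CREB-WT. The groups did not overlap, yet 1 control array set most of the difference of -1.99 ± 0.91 (SE), which did not pass (unadjusted p = 0.0698). Mir302d read 5.75, 5.40 and 5.46 in CREB-KO and 6.05, 7.23 and 5.42 in CREB-WT, with overlap, and differed by -0.69 ± 0.44 (SE; unadjusted p = 0.164).

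Of the 5 rows, 3 passed the study thresholds and 4 did not overlap between the groups. Of all rows, 0.728% passed as lower and 3.29% had all CREB-KO arrays below all CREB-WT arrays. The median difference of the group was -1.73, the lowest of the 52 groups. The counts thus come from the same values that set the group apart. The 5 hairpins lie on 1 strand, in the long non-coding gene Gm51018, which had no row of its own here, and opposite to Larp7, which encodes an RNA-binding protein. Larp7 read 12.1 in both groups and differed by 0.03 ± 0.24 (SE). Zgrf1, the next measured gene, was higher in CREB-KO without overlap. It differed by 0.35 ± 0.14 (SE; unadjusted p = 0.0451, adjusted p = 0.894), short of the fold of 1.5. The calls of Mir302b and Mir302c were kept without each array in turn, with differences from -1.97 to -1.48 and from -1.93 to -1.48. Without both arrays numbered 1, a fit chosen after the data were seen, the differences were -1.66 and -2.0 and both calls were kept.

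**Figure D4:**
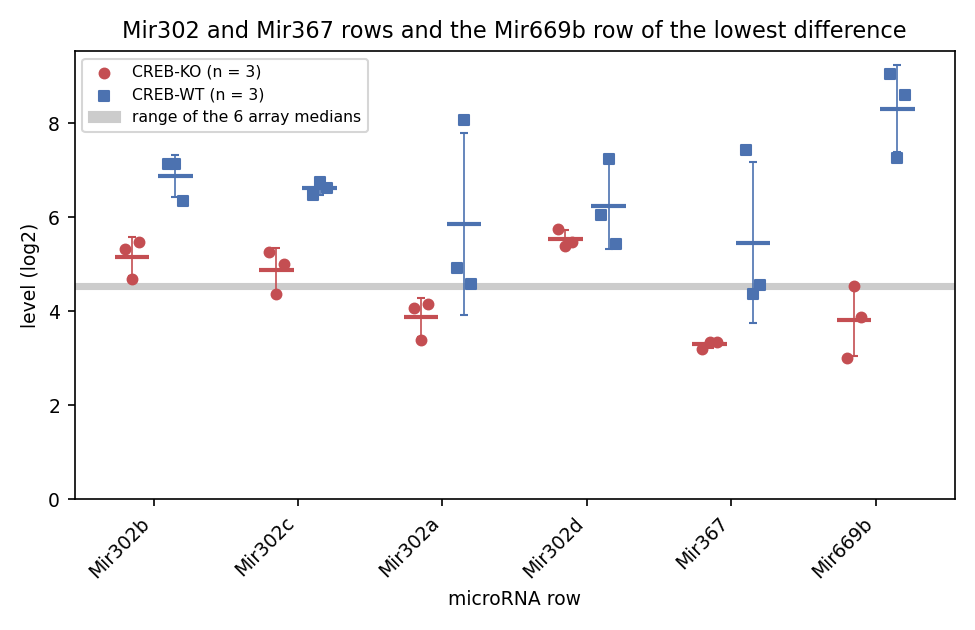
Level (log2) of the 5 Mir302 and Mir367 rows and of the called Mir669b row in each array (red circles CREB-KO, blue squares CREB-WT; lines are means, bars SD, n = 3 each), with the range of the array medians in grey. CREB-KO lies wholly below CREB-WT for all rows except Mir302d; Mir302a and Mir367 each have 1 high control array.

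The other 2 rows called lower were Mir7042 and Mir18b. Mir7042, in the host gene Tatdn2, read 7.29, 7.69 and 8.59 in CREB-KO and 9.85, 8.93 and 8.93 in CREB-WT, without overlap. It differed by -1.38 ± 0.40 (SE; unadjusted p = 0.0131), and Tatdn2 by -0.24. Without both arrays numbered 1 the difference of Mir7042 was -0.79 and no longer passed. Mir18b, of the Mir106a to Mir363 group on chromosome X, read 5.01, 4.77 and 4.82 in CREB-KO and 5.62, 6.25 and 5.12 in CREB-WT. It differed by -0.80 ± 0.28 (SE; unadjusted p = 0.029) and lost the call without each of 4 arrays in turn.

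Among the 10 rows called higher the firmest was Mir494, of the imprinted microRNA group on chromosome 12. It read 5.87, 6.03 and 6.04 in CREB-KO and 5.29, 5.45 and 5.14 in CREB-WT, without overlap, and differed by 0.69 ± 0.13 (SE; unadjusted p = 0.00162, adjusted p = 0.671). The 26 microRNAs of its group, itself included, had differences from -0.53 to 0.69 with a median of 0.09, and it alone of them was called. Mir7055, within Slc17a7, which encodes a vesicular glutamate transporter, read 5.41, 5.94 and 6.34 in CREB-KO and 4.98, 5.14 and 4.91 in CREB-WT, and differed by 0.89 ± 0.24 (SE). Mir7021 read 6.25, 5.5 and 5.31 in CREB-KO and 5.07, 4.61 and 4.33 in CREB-WT, and differed by 1.02 ± 0.30 (SE). Both were without overlap, at modest levels.

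Mir1198 was the brightest of the called rows. It read 9.45, 9.13 and 9.71 in CREB-KO and 8.52, 9.0 and 8.22 in CREB-WT, without overlap, and differed by 0.85 ± 0.25 (SE). Its host Gripap1, which encodes a protein of receptor trafficking, differed by -0.18. Mir1198 lost the call without both arrays numbered 1 (0.81).

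The largest difference upward rested on few arrays. Mir3074-1 read 8.65, 6.53 and 4.07 in CREB-KO and 3.57, 3.50 and 4.34 in CREB-WT, with overlap, and differed by 2.62 ± 1.08 (SE; unadjusted p = 0.0492). Without CREB-KO replicate 1 the difference was 1.5, and the call was lost without each of 5 arrays in turn. Mir1b, a microRNA of muscle on chromosome 18, read 7.26, 8.85 and 8.02 in CREB-KO and 6.64, 5.16 and 7.32 in CREB-WT, with overlap by 1 array. It differed by 1.67 ± 0.63 (SE), and without CREB-WT replicate 2 by 1.06, no longer past the thresholds.

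The last 4 were Mir7651 (1.01), Mir3109 (1.16), Mir881 (0.69) and Mir3079 (0.65). Mir3109 lost the call without each of 4 arrays in turn (CREB-KO replicates 1 and 2, CREB-WT replicates 1 and 3), and its difference was 0.56 without both arrays numbered 1. Mir3079 lost it without each of 4 arrays (CREB-KO replicates 1 and 3, with 0.39 without the latter, and CREB-WT replicates 2 and 3), after centring and after quantile normalization. Mir7651 lost it without each of 3 arrays (CREB-KO replicate 1, CREB-WT replicates 2 and 3), and Mir881 without CREB-KO replicate 2 (0.51). Mir3109 lies in Anxa2, the gene of an annexin, which differed by 0.01. Mir881, of an X-linked group known from testis, was below the median on all 6 arrays, and Mir3079 on 5 of them. Of the 16 called rows, 8 were above the array median on all 6 arrays and 13 did not overlap between the groups. The count of 13 follows in large part from the choice of rows by p, so it is no separate result.

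MicroRNAs known from T cells had a median level of 4.30, below the array medians of 4.48 to 4.58, and 0 of them passed the study thresholds. Of the 67 on the list 40 had a row of their own. Of all rows 2.35% passed in either direction, and 40 rows are too few to tell 0 from that share. Mir155, Mir146a, Mir21a and the Mir17 to Mir92 group were among those not measured singly. Above the median on all 6 arrays were 10 and on 0 arrays 16, and the median difference was 0.09, against 0.05 over all rows. The level was above the highest array median in 17.

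Mir142, which marks blood cells of all lineages, was the brightest. It read 7.76, 8.27 and 7.54 in CREB-KO and 9.60, 12.45 and 8.13 in CREB-WT, overlapping by 1 array. CREB-WT replicate 2 stood far above the rest. The difference was -2.21 ± 1.03 (SE; unadjusted p = 0.0728), and it was -1.01 without that array and past the study thresholds at -3.17 without CREB-WT replicate 3.

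Mir342, in an intron of Evl, read 5.38, 7.29 and 6.97 in CREB-KO and 7.14, 7.87 and 9.15 in CREB-WT. The groups overlapped, and the difference was -1.51 ± 0.67 (SE; unadjusted p = 0.0636). A second row of Mir342 with no chromosome code held the same 6 values. Evl, which encodes an actin regulator, read 11.8 in CREB-KO and 12.0 in CREB-WT, a difference of -0.16. Mir342 passed the study thresholds without CREB-WT replicate 1 (-1.96), after quantile normalization and without both arrays numbered 1 (-1.38).

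No measured member of the Mir15 and Mir16 family, which restrains the cell cycle, was called. Mir15a read 9.43, 7.10 and 7.63 in CREB-KO and 7.25, 9.36 and 7.48 in CREB-WT, 1 high array in each group, and differed by 0.03 ± 0.78 (SE). Mir16-2 read 6.30, 6.91 and 6.71 in CREB-KO and 7.14, 6.81 and 7.22 in CREB-WT, and differed by -0.41 ± 0.20. Its neighbour Mir15b read 3.72, 5.67 and 4.05 in CREB-KO and 4.48, 4.90 and 7.19 in CREB-WT. It differed by -1.04 ± 0.83, and the groups overlapped for all 3.

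Of the let-7 family, which share the seed GAGGUAG, 11 rows had a median level of 4.28 and a median difference of 0.12. Mirlet7d read 7.54, 7.97 and 6.95 in CREB-KO and 7.65, 7.36 and 7.10 in CREB-WT. Mirlet7b read 7.17, 7.61 and 7.16 in CREB-KO and 6.90, 6.73 and 7.11 in CREB-WT, without overlap, and differed by 0.40 ± 0.18 (SE; unadjusted p = 0.0636). Mirlet7g read 5.64, 5.5 and 5.60 in CREB-KO and 6.62, 5.40 and 6.07 in CREB-WT, with overlap, and passed as lower without CREB-WT replicate 2 (-0.77). Mirlet7a-1 read 4.83, 5.31 and 4.50 in CREB-KO and 4.82, 4.76 and 4.69 in CREB-WT. The other let-7 rows were at or below 4.52, and 0 of the family were called.

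Several other rows of T cell microRNAs varied widely between replicates, and 0 of these were called on all 6 arrays. Mir29a, which limits interferon-gamma in T cells of mice, read 7.04, 6.98 and 4.28 in CREB-KO and 8.27, 3.95 and 5.74 in CREB-WT. Its partner Mir29b-1 read 5.06, 6.36 and 5.02 in CREB-KO and 4.76, 5.34 and 4.77 in CREB-WT. Mir181b-2 read 4.69, 7.80 and 4.64 in CREB-KO and 4.33, 4.87 and 5.22 in CREB-WT, set by 1 high array. Its neighbour Mir181a-2 read 4.31, 4.25 and 4.86 in CREB-KO and 5.43, 5.22 and 4.51 in CREB-WT. Mir181a-2 is a precursor of miR-181a, which tunes T cell receptor sensitivity, and Mir181a-1 had no row of its own. Mir181a-2 passed the study thresholds once either array numbered 3 was left out, at -0.77 with the CREB-KO array omitted and -0.85 with the CREB-WT array omitted.

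The remaining T cell rows above the array medians gave overlapping groups. Mir30d read 5.41, 5.36 and 5.70 in CREB-KO and 5.48, 5.51 and 5.53 in CREB-WT. Mir23a read 5.39, 5.04 and 5.12 in CREB-KO and 6.30, 5.08 and 5.15 in CREB-WT. Mir466l, reported to stabilise Il10 messenger RNA in mouse macrophages, read 4.75, 5.60 and 5.39 in CREB-KO and 4.48, 4.91 and 4.85 in CREB-WT, and Mir30b read 5.0, 4.65 and 4.92 in CREB-KO and 4.79, 4.83 and 4.28 in CREB-WT. Mir466l passed as higher without CREB-KO replicate 1 (0.75) and without both arrays numbered 1 (0.61). The other 23 T cell microRNAs had means from 2.39 (Mir26a-1) to 4.52 (Mirlet7f-1) and differences from -0.49 to 1.48. Among them Mir150, Mir31 and Mir210, which have roles in lymphocytes, were below the median on all 6 arrays, at 2.91, 3.73 and 4.16.

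**Figure D5:**
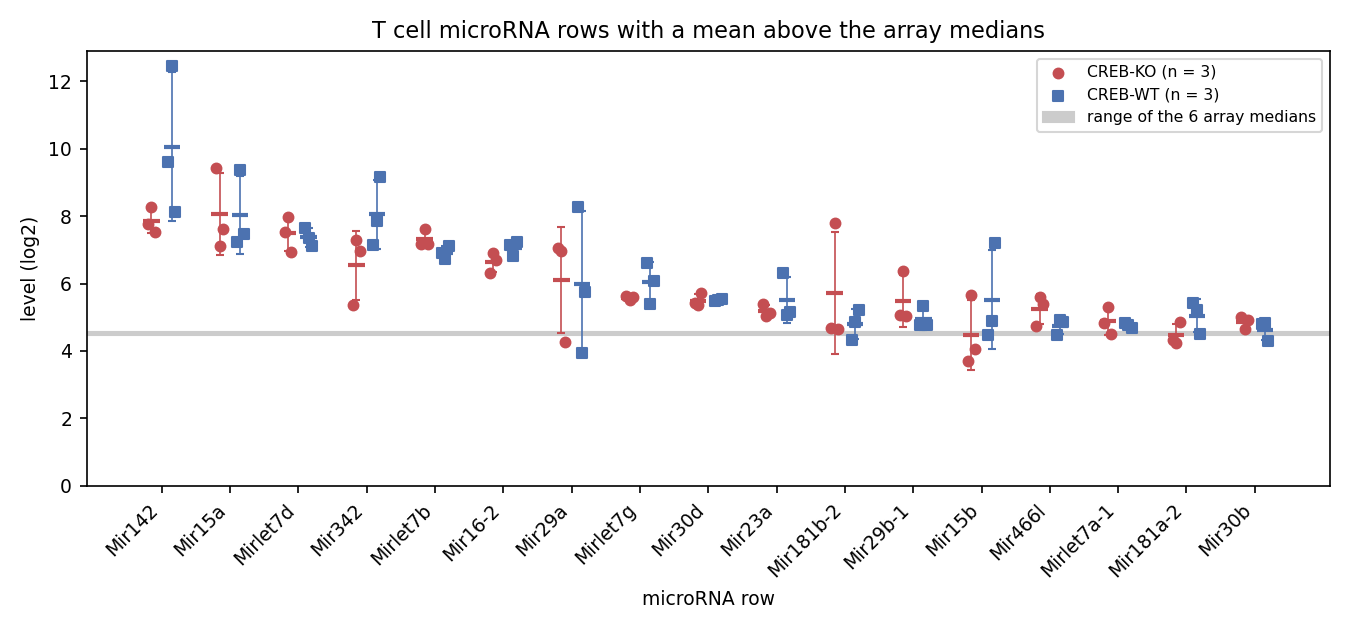
Level (log2) in each array of the 17 T cell microRNAs whose mean was above the highest array median (red circles CREB-KO, blue squares CREB-WT; lines are means, bars SD, n = 3 each), with the range of the array medians in grey. Single arrays stand apart for Mir142, Mir15a, Mir29a, Mir181b-2 and Mir15b, and Mirlet7b alone has groups that do not overlap.

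Of 4 microRNAs linked to CREB 0 were called, which so few rows cannot tell from the 2.35% of all rows. Mir212 and Mir132, made from 1 primary transcript that CREB induces in neurons, were below the median on all 6 arrays. Mir132 read 2.81, 2.33 and 2.58 in CREB-KO and 2.89, 2.36 and 2.49 in CREB-WT, and differed by -0.01 ± 0.20 (SE). Mir212 read 3.51, 3.69 and 3.63 in CREB-KO and 3.66, 3.39 and 3.57 in CREB-WT, and differed by 0.07 ± 0.13. Mir34b, which represses CREB in human leukaemia cells, read 7.32, 7.53 and 7.70 in CREB-KO and 7.53, 7.90 and 7.44 in CREB-WT, a difference of -0.11 ± 0.17, at a level above the median on all 6 arrays. Mir34c read 4.58, 4.28 and 4.89 in CREB-KO and 4.38, 4.79 and 3.76 in CREB-WT, a difference of 0.27 ± 0.29. The groups overlapped for all 4.

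MicroRNAs known from other tissues were listed too. Of 7 measured members of the muscle list 0 were above the median on all 6 arrays, and the highest was Mir133a-1 at 5.09. Mir1b, given above among the rows called higher, was not on that list and had a mean of 7.21. The 6 epithelial microRNAs reached 4.46 (Mir141), the 2 of endothelium and stroma 4.19 (Mir143), the 7 of the nervous system 6.52 (Mir7-1, in the abundant host Hnrnpk) and Mir122 of liver 5.27. Against 4.30 for the T cell list, median levels were lower for muscle (3.79), nervous system (4.0), epithelial (3.88) and endothelial and stromal (3.68) lists. They were higher for liver, with the single row of Mir122, and for the embryonic stem cell list (5.75), with 5 rows. These medians were not tested against each other. Myeloid Mir223 and erythroid Mir144 and Mir451a had no row of their own. None of the muscle, liver, nervous system, epithelial, and endothelial and stromal lists had a called member. Each held at most 7 measured rows, too few to tell 0 from the 2.35% of all rows called. The 5 measured members of the embryonic stem cell list were the Mir302 and Mir367 rows, so its 3 lower calls are those given above.

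Genes of the microRNA pathway were measured for comparison. Of 32 on the list 27 had a row, and 25 of these were above the median on all 6 arrays. None was called, which 27 rows cannot tell from the 2.35% of all rows, and the median difference was -0.03. Drosha, which cuts the primary transcript, read 8.52, 8.66 and 8.79 in CREB-KO and 8.97, 8.97 and 8.86 in CREB-WT. These did not overlap, with a difference of -0.28 ± 0.12 (SE; unadjusted p = 0.0587). Dicer1 differed by 0.01 ± 0.10. Ddx17, a helicase of the Drosha complex, had the highest level and differed by -0.57 ± 0.24. Its groups overlapped by 1 array, and it passed the study thresholds after centring (-0.63) and after quantile normalization (-0.65). Lin28a and Lin28b, which block let-7 in embryonic cells, were below the median on all arrays.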

How the data were processed

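RNA was isolated with the RNeasy Micro Kit. The labels give 7.92 ng per sample and the Ovation Pico kit, and the methods another amount and kit; the design text names MTA 1.0 arrays and the paper's text other arrays. The deposited values are log2 expression values made by the authors with RMA (version and genome build not given in the sources used here), and they reach 19.93, so what set the scale is not known. RefSeq (GRCm38.p6) gave names, chromosomes, hosts, neighbours and sequences. Of the 638 rows 587 had an Entrez identifier.

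The groups were compared with limma (3.58.1, R 4.3.3) on the deposited values of all 65956 rows, two-sided, with Benjamini-Hochberg adjustment over all rows. Called means a fold of at least 1.5 and an unadjusted p below 0.05, as in the study. The script was tested on simulated data. With 3 arrays in each group the smallest p of an exact permutation test is 0.1. MicroRNAs within 10 kb of each other on a chromosome formed a group; 239 rows fell in 52 groups. Named were the 20 brightest rows, all called rows, and the T cell, CREB and other tissue lists. Members and lists were chosen with earlier results of these data known. Alternatives were each array left out, a replicate block, centring, quantile normalization, an intensity trend, the methods' t-test, a filter on dim rows and 1 row per microRNA; leaving out both arrays numbered 1 was chosen after seeing the data. The number of arrays limits the precision. Whether the replicate number pairs the arrays was not settled. The correlations of same-numbered deviations were 0.22, 0.018 and 0.041, and those of differently numbered arrays ran from -0.19 to 0.18. The main fit did not pair the arrays, and the replicate block did. Of the member rows 66 share all 6 values with another member row, leaving 596 distinct sets of values.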

Additional observations from a re-analysis of the deposited data

How the results depend on the processing

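No row passed an adjusted p of 0.05 under any setting run. The 10 rows called higher (1.57%, against 1.62% of all rows) became 11 to 30 without 1 array (30 without CREB-WT replicate 2, 4.70% against 2.17%, and 23 without CREB-KO replicate 1, 3.61% against 2.45%), 32 when both arrays numbered 1 were left out (5.02% against 2.25%), and 5 with the methods' t-test (0.784% against 0.973%), which was run on the same values. The 6 called lower (0.94% against 0.728%) became 6 to 13 without 1 array. They were 10 and 11 without CREB-KO replicates 1 and 3 (1.57% and 1.72%, against 1.27% and 0.784%) and 12, 12 and 13 without CREB-WT replicates 1, 2 and 3 (1.88%, 1.88% and 2.04%, against 1.03%, 0.986% and 1.09%). They were 13 when both arrays numbered 1 were left out (2.04% against 1.28%) and 12 with the replicate block (1.88% against 1.04%). With that block 11 were higher and 13 of the 16 called rows were kept; Mir142 and Mir342 passed with it. Of the 16 called rows 8 kept the call without each array. Under the 12 alternatives run for each named row, 6 kept it throughout: Mir669b, Mir302b, Mir302c, Mir494, Mir7055 and Mir7021. No called row reversed under these 12, which left out the filter on dim rows and the choice of 1 row per microRNA. With 1 row per microRNA 5 rows, not 6, were called lower. Mir669b has 2 rows, so its call is not claimed for that choice. Of 65 other named rows 6 passed under at least 1 alternative. The median difference ran from 0.039 to 0.111 without 1 array. The share above the median, 54.7%, was 54.4% to 55.2% without 1 array, 49.1% against the median of rows with 1 gene symbol and 52.7% with 1 row per microRNA. The count of pathway genes called, 0 in the report, was 0 to 2 without 1 array (1, Ddx17, without CREB-KO replicate 1; 2, Ddx17 and Ago3, without CREB-WT replicate 3) and 1 (Ddx17) after centring and after quantile normalization. Apart from the constructions named, the cause of these changes was not tested.

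With 3 arrays per group, differences of rows with wide spread, such as Mir29a and Mir3074-1, were not resolved. Rows below the array median carry little information on differences.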
